A study of Mus musculus with 30 samples.

Results

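RNA of the cells that anti-CD90 magnetic beads left behind was compared with RNA of the cells they captured, within mutant newborn mouse retina and across the whole genome. The captured cells are the retinal ganglion cell (RGC) fraction and all other retinal cells form the non-RGC fraction. Every gene of the authors' deposited comparison with a mean normalised count of 10 or more over both fractions was taken, which gave 15179 of 38720 genes listed. Of the 38720, 25252 had at least 1 read in either fraction. The 3 libraries of each fraction came from retinas collected at P0, the day of birth, and dissociated with papain, and poly(A) RNA was sequenced. Mutant mice carried a Math5Cre driver, in which the regulatory region of Math5 (Atoh7), a transcription factor gene switched on in progenitors that are about to leave the cell cycle, drives Cre recombinase. The labels describe 2 mutant genotypes, Math5Cre; Ezh2f/f, with both copies of Ezh2 floxed, and Math5Cre; Ezh2f/fG9af/+, with 1 copy of G9a (Ehmt2) floxed in addition. The deposited table names its libraries only as mutant, so which genotype it holds was not known, and the same uncertainty covers both fractions. Wild-type C57BL/6 libraries were not part of the comparison. Cre acts only in cells that have expressed the driver and in their descendants, so both fractions can mix recombined with unrecombined cells. Nothing in the labels says that the 3 libraries of a fraction came from separate animals, so the p-values below measure only the spread between these libraries. The samples were bulk RNA, in which fewer cells of a type and less RNA per cell cannot be told apart.

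CD90 is the surface protein encoded by Thy1, carried by ganglion cells and by several other neurons and stromal cells. Ganglion cells are the projection neurons of the retina: they arise first in development, leave the cell cycle, and send axons through the optic nerve under the control of transcription factors such as Pou4f2 and Isl1. At birth the rest of the retina is mostly dividing progenitors, young amacrine and horizontal cells, cones and the first rods. Microglia, the resident macrophages, enter from outside and lie close to the ganglion cell layer. Division of progenitors is driven by E2F factors, which act on genes of DNA replication, and by complexes that bind the cell cycle homology region (CHR) of mitotic genes. Macrophage genes are controlled in large part by the ETS factor PU.1.

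Promoters of 5 genes stand for the gene groups of division and of macrophages described below. They were read from RefSeq on GRCm38.p6, from 250 bases before to 50 after the start site, on the strand of the gene, with the matched motif in capitals. Pole2, a subunit of DNA polymerase epsilon (chr12:69228141-69228440, minus strand), and Mcm5, a subunit of the replicative helicase (chr8:75109259-75109558, plus strand), hold an E2F match. Kif23, a kinesin of cytokinesis (chr9:61946750-61947049, minus strand), holds a CHR match. C1qc, a chain of complement C1q (chr4:136892865-136893164, minus strand), and Ctss, the lysosomal protease cathepsin S (chr3:95526536-95526835, plus strand), hold a PU.1 match.
Pole2: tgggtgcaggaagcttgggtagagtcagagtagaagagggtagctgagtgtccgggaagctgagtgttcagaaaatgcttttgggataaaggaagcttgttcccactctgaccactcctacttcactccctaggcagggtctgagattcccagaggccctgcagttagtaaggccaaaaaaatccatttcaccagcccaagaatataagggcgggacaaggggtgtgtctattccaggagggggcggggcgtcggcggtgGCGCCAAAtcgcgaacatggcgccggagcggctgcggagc
Mcm5: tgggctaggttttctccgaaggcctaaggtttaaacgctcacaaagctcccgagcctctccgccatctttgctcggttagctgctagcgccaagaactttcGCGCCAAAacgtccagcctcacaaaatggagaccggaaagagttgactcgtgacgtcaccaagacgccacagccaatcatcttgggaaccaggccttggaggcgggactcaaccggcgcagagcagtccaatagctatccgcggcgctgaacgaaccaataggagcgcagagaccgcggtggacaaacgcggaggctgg
Kif23: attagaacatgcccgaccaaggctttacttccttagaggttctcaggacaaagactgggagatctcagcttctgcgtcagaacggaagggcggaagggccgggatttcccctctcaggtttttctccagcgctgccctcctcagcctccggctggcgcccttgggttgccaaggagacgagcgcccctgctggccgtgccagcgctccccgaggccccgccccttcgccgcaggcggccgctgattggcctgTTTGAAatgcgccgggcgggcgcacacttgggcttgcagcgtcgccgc
C1qc: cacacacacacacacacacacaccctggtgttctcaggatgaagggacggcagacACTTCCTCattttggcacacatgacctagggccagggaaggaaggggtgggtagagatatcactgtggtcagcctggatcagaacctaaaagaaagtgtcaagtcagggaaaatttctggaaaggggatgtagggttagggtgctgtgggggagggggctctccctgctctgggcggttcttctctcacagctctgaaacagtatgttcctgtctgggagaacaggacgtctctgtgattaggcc
Ctss: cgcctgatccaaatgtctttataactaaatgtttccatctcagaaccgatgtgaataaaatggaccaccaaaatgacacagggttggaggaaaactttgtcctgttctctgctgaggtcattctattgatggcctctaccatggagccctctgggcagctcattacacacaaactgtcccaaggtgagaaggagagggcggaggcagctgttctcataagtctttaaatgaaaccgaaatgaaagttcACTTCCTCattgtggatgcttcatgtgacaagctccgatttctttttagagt

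The letters searched, on both strands, were TTTGGCGC and TTTCCCGC for E2F, TTTGAA for CHR and GAGGAAGT for PU.1, and no motif overlaps another. RefSeq promoters were found for 10876 of the genes tested, 13967 promoters in all. Of these, 2.66% held the E2F letters, 11.3% the CHR letters and 2.69% the PU.1 letters. Among 110 promoters of the DNA replication and mitosis genes, E2F was found in 15.5% and CHR in 42.7%, while PU.1 was found in 2.73%. Among 36 promoters of microglia and macrophage genes, PU.1 was found in 16.7%, CHR in 11.1% and E2F in 2.78%. In 299 promoters of the 8 neuronal gene groups, E2F was found in 0.334%, CHR in 12.4% and PU.1 in 1.34%. Over all genes called higher in the non-RGC fraction (714 promoters), 6.16% held E2F and 19.5% held CHR. Over all genes called lower (1844 promoters), those shares were 1.3% and 10.5%, and 3.63% held PU.1. A match describes the letters in this window and shows no binding.

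Libraries held 11671207 to 12242207 reads assigned to genes in the RGC fraction and 10608729 to 11205148 in the non-RGC fraction, and a read was found in 19870 to 21666 genes per library. Single libraries were recovered from the group means and carry no sample names, so they are numbered within each fraction. RGC library 1 and non-RGC library 3 stood apart. In them 1187 and 1082 genes, respectively, lay more than 2-fold from the mean log2 value of the other 2 libraries of their fraction. In the other libraries 344 to 592 genes did so. RGC library 1 had the lowest ganglion cell markers of its fraction and the highest microglial, endothelial and rod genes. Non-RGC library 3 had the lowest ganglion cell markers of all 6 and the highest rod genes of its fraction. For this reason the counts of the main gene groups are also given without both libraries, a fit added after the data were seen. Since the libraries left out were chosen for how they deviate, the larger numbers of calls in that fit are no independent support.

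The RGC and non-RGC fractions were alike over most of the genome, with a long tail of genes low in the non-RGC fraction. A gene was called when limma's test on log2(normalised count + 1) gave an adjusted p (Benjamini-Hochberg over all 15179 genes) under 0.05, and all differences are non-RGC minus RGC on that scale. Of all genes, 2592 (17.1%) were called, 770 (5.07%) higher and 1822 (12%) lower in the non-RGC fraction. The groups did not overlap, with the non-RGC libraries all above, in 2596 genes (17.1%), and with them all below in 3129 (20.6%). Differences of 79.3% of genes lay within 0.5 log2 of 0 and the median was 0.0128. The 1st and 99th percentiles were -3.168 and 0.9393, so the tail was longer on the low side. The median difference was -0.937 among genes called lower and 0.416 among genes called higher. More than 2-fold differences were called in 857 genes lower and 42 higher, more than 4-fold in 323 lower and 1 higher, and more than 8-fold in 152, which were all lower. The authors' deposited table called 1635 genes at an adjusted p of 0.05 (295 higher, 1340 lower). Of these, 1569 were also called here, with the same direction.

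**Figure D1:**
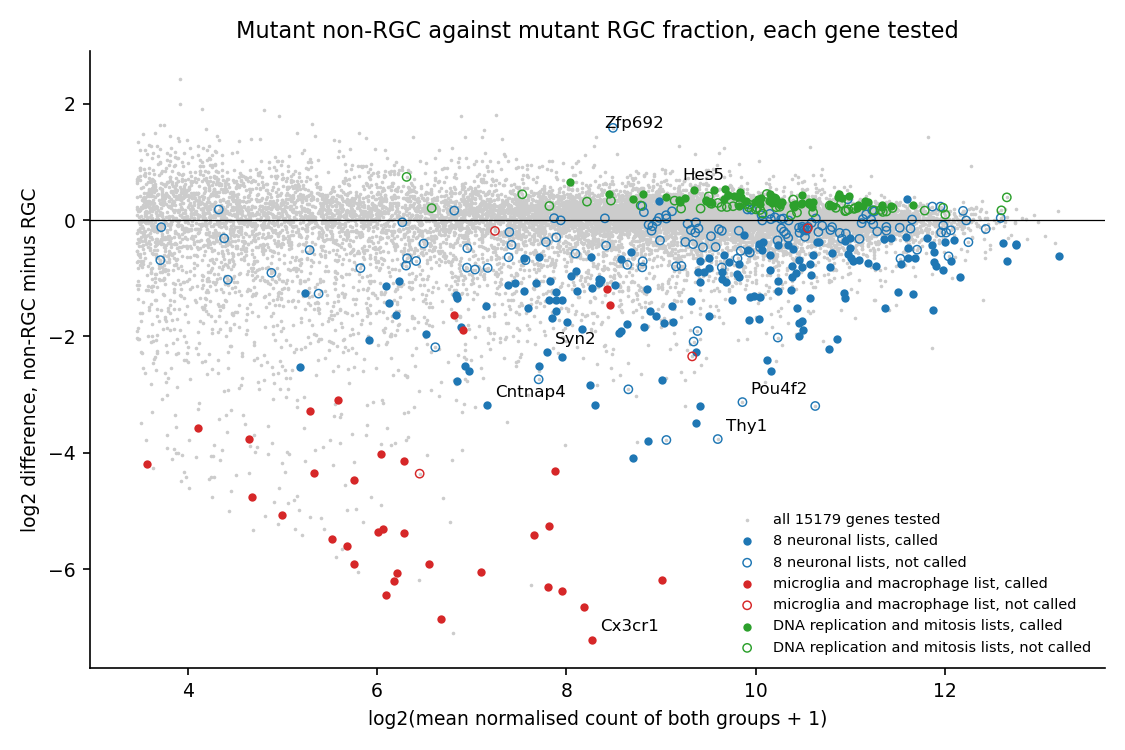
Difference between the fractions (log2, non-RGC minus RGC) against the mean level (log2 of the mean normalised count + 1) of each gene tested, with the 8 neuronal lists, the microglia and macrophage list and the DNA replication and mitosis lists in colour, filled where called and open where not. Microglial genes are among the lowest points down to Cx3cr1 at -7.21, neuronal genes form a broad band below 0, and replication and mitosis genes a narrow band just above 0.

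The balance of higher and lower calls depended on the scaling. With total-count scaling 1471 genes were higher and 1601 lower, and with upper-quartile scaling 1032 and 1746, while the median of all genes moved from 0.0128 to 0.0788 and 0.0402. Without RGC library 1 and non-RGC library 3 together, 2680 genes were higher and 3688 lower. Leaving out a single library gave 3397 calls without RGC library 1, 594 without RGC library 2 and 622 without RGC library 3. It gave 440 calls without non-RGC library 1, 1244 without non-RGC library 2 and 2704 without non-RGC library 3. Of the 137 called genes chosen for naming, 82 lost the call without non-RGC library 1, 73 without RGC library 2, 68 without RGC library 3 and 49 without non-RGC library 2. A set of 394 genes was called with all libraries and in each of these 6 fits, 357 lower and 37 higher. It held 16 microglia and macrophage genes, 10 axonal adhesion molecules, 8 synaptic genes and 7 axon guidance genes, but only 2 genes of DNA replication and 1 of mitosis.

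Many ganglion cell genes were lower in the non-RGC fraction. The genes marked as defining, Pou4f2, Pou4f1, Isl1, Thy1, Rbpms and Sncg, did not pass limma's test with all 6 libraries. All but Isl1 were lower by the authors' own DESeq test. Its adjusted p was 3.97e-08 for Thy1, 0.0013 for Pou4f1, 0.00167 for Pou4f2, 0.0105 for Rbpms, 0.0131 for Sncg and 0.581 for Isl1. Among 32 tested ganglion cell transcription factors, 12 were lower and 1, Ebf4, was higher, with a median difference of -1.18. Among 26 surface and cytosolic markers, 18 were lower, none higher, and the median was -1.63. In the fit without RGC library 1 and non-RGC library 3, 24 factors and 25 markers were lower and 4 factors were higher. Leaving out 1 library could also remove most calls: 4 factors and 4 markers were lower without RGC library 2 or RGC library 3, and 3 of each without non-RGC library 1. Over all genes the median was 0.0128 and 12% were lower.

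The target of the beads, Thy1, had 985.5, 1576 and 1490 normalised counts in the RGC libraries and 217.6, 364.4 and 10.63 in the non-RGC libraries. The groups did not overlap, but non-RGC library 3 lay far below the other non-RGC libraries, and the difference of -3.76 (SE 1.16) had a limma adjusted p of 0.0653. Without non-RGC library 3 the difference shrank to -2.23 (adjusted p = 0.014), and without both libraries it was -2.44 (adjusted p = 4.05e-05). Pou4f2, a master regulator of ganglion cell differentiation, behaved likewise, with 930.6, 1897 and 1841 in the RGC libraries and 354.9, 516.5 and 25.51 in the others. Its difference of -3.13 had a limma adjusted p of 0.079, and without non-RGC library 3 it was -1.79 (adjusted p = 0.0271). Isl1, its partner in ganglion cells and also a gene of amacrine and bipolar cells, overlapped between fractions, with 634.6, 1344 and 1345 against 796, 785.3 and 463.5.

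Factors with less spread within the fractions passed the test. Satb1, a chromatin organiser which marks subtypes of ganglion cells, had means of 2384 ± 63.9 (SD, n = 3) and 1708 ± 51.9, a difference of -0.48 (limma adjusted p = 0.00634). Klf7, a Krüppel-like factor of axon growth, fell by 1.33, from 1398 ± 225 to 556.4 ± 97.8. Of the markers, Elavl4, a neuronal RNA-binding protein, fell (-1.33), as did Mapt, the axonal microtubule protein tau (-0.98), and L1cam, an adhesion molecule of axon bundles (-1.51). Satb1, Klf7, Elavl4, Mapt and L1cam kept their call in every single-library omission and every other setting tried.

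**Figure D2:**
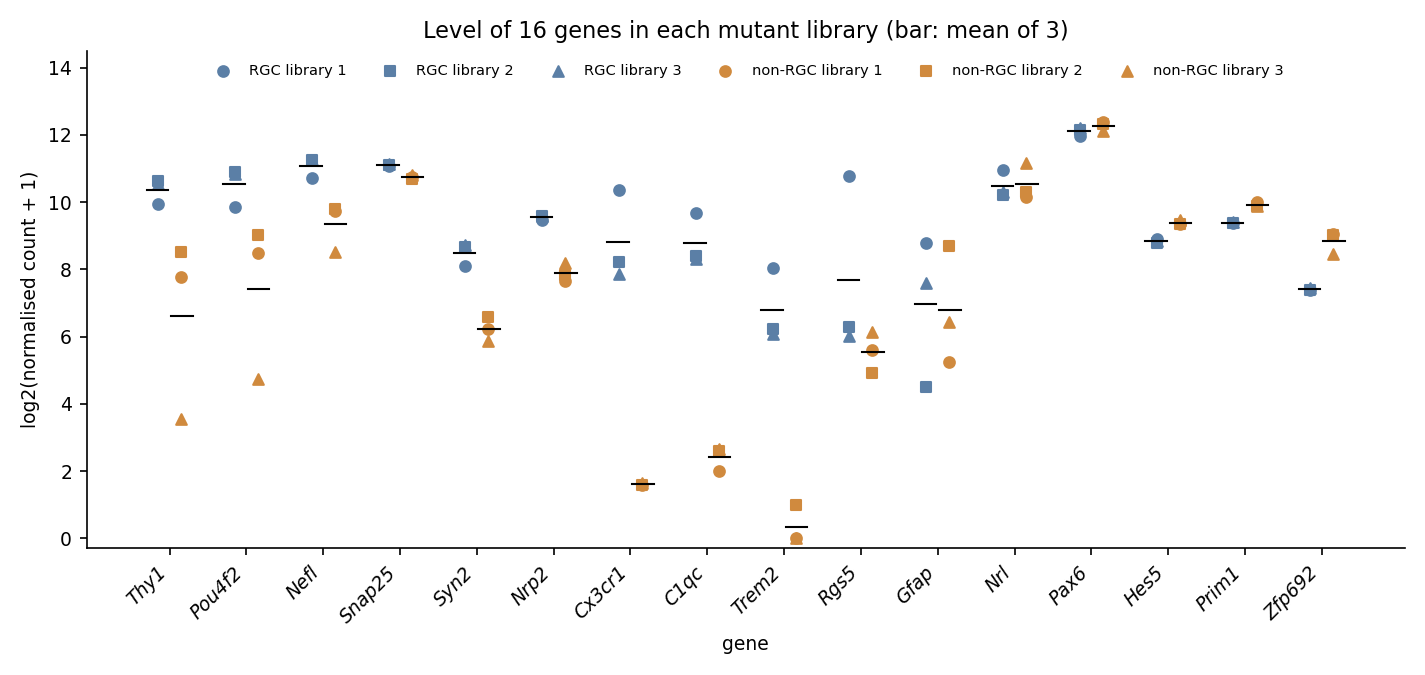
Normalised counts (log2 of the count + 1, vertical axis) of 16 genes in each of the 3 RGC and 3 non-RGC libraries, with a bar at the mean of the 3 log values. Thy1 and Pou4f2 show 1 non-RGC library far below the others, Cx3cr1, C1qc and Trem2 separate the fractions completely with 1 RGC library on top, and Nrl and Gfap overlap.

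Genes of the neuron's axon and synapse moved in the same direction with smaller differences. Of 37 cytoskeletal genes of the axon 26 were lower, of 41 synaptic vesicle and release genes 26, of 47 voltage-gated channels 24, of 42 transmitter receptor subunits 28 and of 37 axonal adhesion molecules 21. The medians were -0.518, -0.589, -0.783, -0.761 and -0.808. Only 1 gene of these groups, the adhesion molecule Igsf9, was higher. The numbers lower without RGC library 1 and non-RGC library 3 were 31, 36, 34, 38 and 31. They dropped to 6, 9, 6, 4 and 10 without non-RGC library 1, to 10, 8, 6, 6 and 12 without RGC library 2, and to 12, 11, 7, 6 and 12 without RGC library 3. Together with guidance genes and the ganglion cell groups above, 158 of 297 neuronal genes were lower and 2 higher. Across these groups the same libraries stood apart: of the 87 neuronal genes lower by more than 2-fold, RGC library 1 was the lowest RGC library in 86 and non-RGC library 3 the lowest non-RGC library in 73. RGC library 1 also had the highest summed level of microglial genes.

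Among axonal genes, Nefh, the heavy neurofilament subunit, had 146.6, 167.6 and 169 in the RGC and 59.15, 70.47 and 66.97 in the non-RGC libraries (-1.29, SE 0.16, limma adjusted p = 0.00696). The groups were well apart and non-RGC library 3 did not stand out for this gene. Nefl, the light subunit, had 1690, 2418 and 2424 against 843.2, 887 and 364.6 (-1.73, limma adjusted p = 0.017). The call for Nefl was lost when RGC library 2 (0.0653), RGC library 3 (0.0631) or non-RGC library 1 (0.0538) was left out. The motor proteins Kif1b, which carries synaptic vesicle precursors (-0.43), and Kif5c, a conventional kinesin (-0.71), also fell, with means of 5862 ± 69.0 and 3218 ± 30.8 (SD, n = 3) in the non-RGC libraries.

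Among synaptic genes, Syn2, a synapsin that tethers vesicles, had 273.3, 402.8 and 421.4 in the RGC and 73.19, 94.64 and 57.41 in the non-RGC libraries (-2.27, SE 0.24, limma adjusted p = 0.0059). Its relative Syn1 fell (-1.04), and so did Rab3c, a vesicle GTPase (-1.22), Napb, a fusion cofactor (-0.91), and Syt1, the calcium sensor of release (-0.66). Snap25, a core fusion protein shared by all neurons, differed least of these, with 2164, 2217 and 2253 against 1722, 1631 and 1800 (-0.37, SE 0.06, limma adjusted p = 0.0113). The Snap25 call was lost without RGC library 2 (0.0556), RGC library 3 (0.0566) or non-RGC library 1 (0.0553).

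Channels and receptors showed the same range. Kcnd3, an A-type potassium channel, had 1420, 1498 and 1479 in the RGC and 835.1, 789.3 and 812.2 in the non-RGC libraries (-0.85, SE 0.06, limma adjusted p = 0.00414). Kcnq3, a subunit of the M-current (-1.75), and Kcnc1, a fast delayed rectifier (-1.07), fell too. Gabbr2, a subunit of the GABA-B receptor (-1.77), and Chrna3, a nicotinic subunit of ganglion cells (-0.76), were lower as well. Chrnb3, another nicotinic subunit, had 710.3, 1483 and 1342 against 179.5, 212.4 and 25.51 (-3.48, SE 0.76, limma adjusted p = 0.0229). The Chrnb3 call was lost without RGC library 2 (0.0818), RGC library 3 (0.0774) or non-RGC library 1 (0.0608).

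Adhesion and guidance molecules were divided. Cntnap5a, a neurexin-like protein, had 168.3, 226.4 and 202.6 in the RGC and 31.08, 36.24 and 20.2 in the non-RGC libraries (-2.76, SE 0.26, limma adjusted p = 0.00425). Tenm1, a teneurin, fell likewise (-1.51). Of 47 guidance genes 12 (25.5%, against 12% of all genes) were lower and none higher, with a median of -0.184, and without RGC library 1 and non-RGC library 3 the numbers were 22 lower and 8 higher. Nrp2, a semaphorin receptor, led them with 708.4, 768.3 and 764.5 against 199.5, 226.5 and 292.3 (-1.65, SE 0.14, limma adjusted p = 0.00425). Nrp1, its relative (-0.93), Sema6a, a semaphorin (-0.8), and Robo2, the Slit receptor that guides ganglion cell axons (-0.55), were also lower. Dcc, the netrin receptor, had means of 1076 ± 68.6 and 755.9 ± 164 and missed the threshold (limma adjusted p = 0.0517). Of 23 clustered protocadherins, cell-surface proteins that give neurons their identity, 14 were lower (60.9%, against 12% of all genes) and none higher. In 22 of the 23 all non-RGC libraries lay below all RGC libraries, against 20.6% of all genes.

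Microglia and macrophage genes had the lowest median of all the gene groups tested, and most had higher normalised counts in the fraction the beads captured. Normalised counts are relative to each library, so they do not show how the total RNA of these genes divided between the fractions. Of 39 tested, 35 were lower in the non-RGC fraction and none higher, and 35 fell by more than 2-fold. Their median difference was -5.06, or -5.25 with the 3 genes that had no non-RGC read set at their bound. Without RGC library 1 and non-RGC library 3, 37 were lower, 1 was higher and the median was -3.91. The number lower was 16 with voom, 16 without non-RGC library 1, and 26 without RGC library 2, RGC library 3 or non-RGC library 3. Most of these genes passed the filter on low counts only through the RGC fraction, where they were high, so their share called has no weight beyond the values themselves. The summed level of the group was 22320, 6092 and 6061 normalised counts in the RGC libraries and 2053, 2521 and 2138 in the non-RGC libraries. RGC library 1 was thus far above the other RGC libraries, and all 3 exceeded every non-RGC library.

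Cx3cr1, the fractalkine receptor that defines microglia, had 1311, 298.9 and 232.1 in the RGC and 2.005, 2.014 and 2.126 in the non-RGC libraries, the largest fitted decrease of all (-7.21, SE 0.61, limma adjusted p = 0.00425). Its call was lost with voom weights on the recovered counts (adjusted p = 0.141). C1qc, whose promoter is shown above, had 813.3, 337.1 and 312.5 against 3.008, 5.034 and 5.315 (-6.37, SE 0.41, limma adjusted p = 0.00362). Ctss had 738.6, 325.3 and 256.5 against 5.013, 4.027 and 3.189 (-6.3, SE 0.41, limma adjusted p = 0.00362). C1qc and Ctss kept their call in every setting. C1qb, another chain of complement C1q (-5.25), Laptm5, a lysosomal membrane protein of blood cells (-6.65), and Csf1r, the receptor for the survival factor of macrophages (-6.18), fell to a like extent, the latter pair with no call under voom (adjusted p = 0.0785 and 0.0823).

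Several macrophage genes were at the limit of detection outside the captured fraction. Emr1, the F4/80 antigen, had 694 reads over the RGC libraries and 0 over the non-RGC libraries, which makes it at least 222-fold lower there at a floor of 3 reads over the group, with no call under voom (adjusted p = 0.0618). On the same floor Pf4 was at least 102-fold and Siglech at least 61.9-fold lower. P2ry12, a purine receptor of resting microglia, had 1 non-RGC read, a ratio of 607 with a 95% exact interval of 109 to 24000 that covers counting error only. Trem2, a lipid receptor of microglia, likewise had 1 read and a ratio of 400 (71.5 to 15900). Tyrobp, its signalling adaptor, had a ratio of 212 (58.3 to 1750). The reads of all these genes came mainly from RGC library 1, where Trem2 had 262.9 against 73.5 and 66.17 in the other RGC libraries. The members not called were Cd68, Stab1, Lyve1 and Sparc. Stab1, a scavenger receptor of border macrophages, had 3042, 196 and 278.9 against 130.3, 128.9 and 74.41 (limma adjusted p = 0.135).

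**Figure D3:**
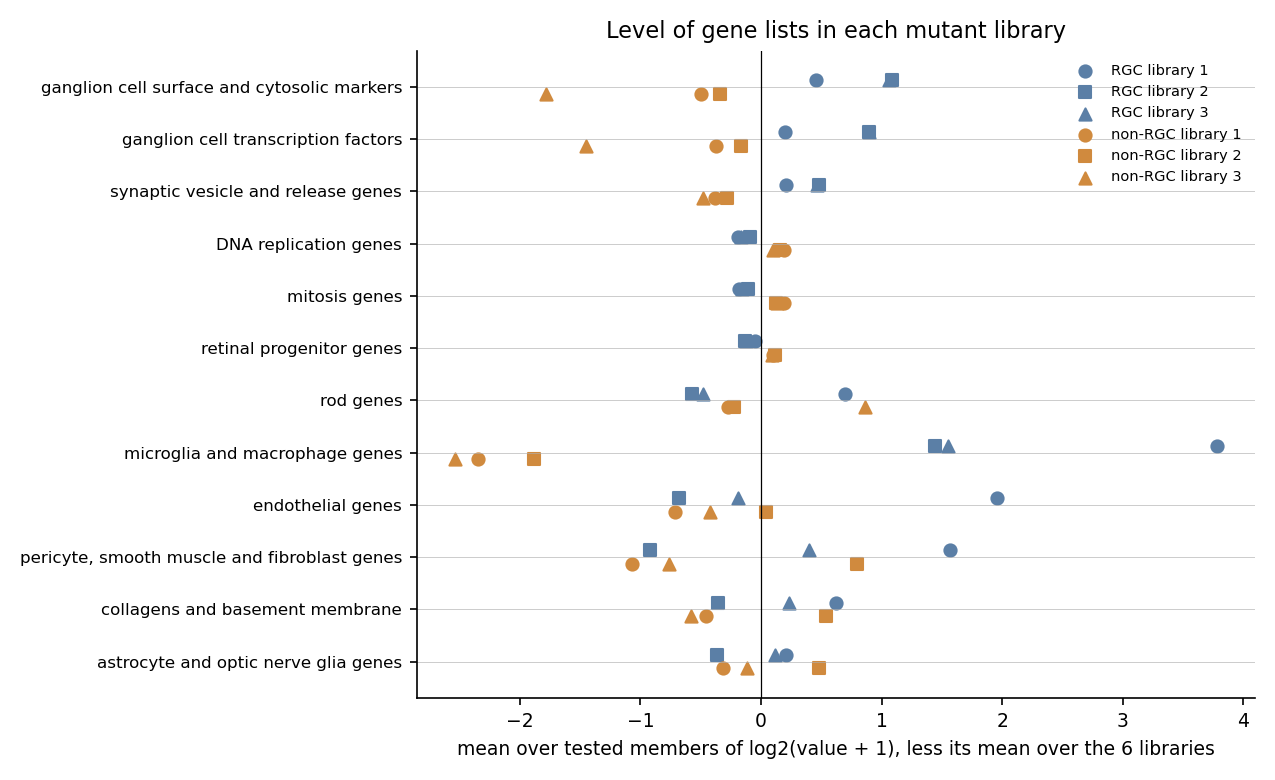
Mean level of gene groups in each library (log2, relative to the mean of the 6 libraries, averaged over the tested members), with RGC and non-RGC libraries 1 to 3 marked. Microglial genes are at 3.78, 1.44 and 1.55 in the RGC libraries and at -2.35, -1.88 and -2.54 in the non-RGC libraries. Ganglion cell markers are lowest in non-RGC library 3 at -1.78, and endothelial and pericyte genes peak in RGC library 1 at 1.96 and 1.57.

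Genes of vessels, connective tissue and glia outside the retina's own lineage were rarely called. Of 27 endothelial and 26 pericyte, smooth muscle and fibroblast genes none was called, although their medians were -0.712 and -0.818, and without RGC library 1 and non-RGC library 3 the medians were 0.127 and 0.176. Rgs5, a pericyte gene, had 1738 in RGC library 1 but 77.42 and 63.12 in the other RGC libraries, against 47.12, 29.2 and 69.1. Cdh5, the cadherin of endothelial junctions, had 494.6, 21.56 and 54.97 against 15.04, 69.47 and 29.77. Of 18 genes of astrocytes and optic nerve glia none was called. Gfap, the astrocyte filament, had 440.7, 21.56 and 191.4 against 37.1, 413.8 and 86.11, so it varied more within each fraction than between them. Of 43 collagen and basement membrane genes 4 were higher and 2 lower, among them Lamb1, a laminin chain, lower by 1.45 with 783.1, 669.3 and 792 against 221.6, 449 and 203. The Lamb1 call was lost without RGC library 2 (0.0561), RGC library 3 (0.0636) or non-RGC library 1 (0.0732). The lymphocyte markers Cd3e and Cd3g and the B cell marker Ms4a1 had at most 1 read in any library. Cpa3, a mast cell protease, had 142.8, 4.9 and 100.8 against 0, 0 and 1.063. It passed the filter on low counts only through the RGC fraction, so its call has no weight beyond the values. The ratio of its reads was 244 (43.5 to 9690, 95% exact interval), and its limma call was lost in 5 of 14 settings: with a pseudocount of 5 (adjusted p = 0.051), with voom (0.136), and without RGC library 3 (0.103), non-RGC library 1 (0.0971) or non-RGC library 2 (0.0824).

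The non-RGC fraction was higher in genes of proliferating progenitors, by small and even amounts. Of 62 mitosis genes 43 were higher, of 54 DNA replication genes 21, of 45 retinal progenitor genes 7 and of 27 genes of cell cycle exit and its control 7, and no gene of these groups was lower. The medians were 0.286, 0.283, 0.205 and 0.222, against 0.0128 for all genes and a background of 5.07% higher. The numbers higher without RGC library 1 and non-RGC library 3 were 60, 43, 32 and 17. These calls rested on small differences and were easily lost: mitosis genes called higher numbered 5 without RGC library 2, 1 without RGC library 3, 1 without non-RGC library 1 and 15 without non-RGC library 2. In a fit that shared the spread of 9 libraries, wild-type RGC libraries included, none of the mitosis and 4 of the replication genes were called.

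Prim1, the DNA primase subunit that starts new strands, had 666.8, 657.6 and 675.9 in the RGC and 1027, 946.4 and 936.6 in the non-RGC libraries (0.54, SE 0.07, limma adjusted p = 0.00711). Tk1, thymidine kinase, rose by 0.51 (adjusted p = 0.0515 without non-RGC library 1), and E2f1, the E2F factor itself, rose by 0.37, with 1689, 1636 and 1687 against 2078, 2205 and 2207. Mcm5, whose promoter is shown above, had 1851, 2079 and 1963 against 2344, 2394 and 2321 (0.26, SE 0.06, limma adjusted p = 0.0284). The calls for Prim1, E2f1 and Mcm5 were lost in the 9-library fit (adjusted p = 0.0501, 0.258 and 0.314), and that for Mcm5 also without RGC library 2 (0.0635), RGC library 3 (0.108), non-RGC library 1 (0.0976) or non-RGC library 2 (0.0966). Pole2 had 213.7, 209.7 and 189.3 against 346.9, 310.1 and 304 (0.65, SE 0.11, limma adjusted p = 0.0126), and was named for its promoter after its values were seen.

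Kif23, shown above with its CHR match, had 1231, 1205 and 1246 against 1676, 1626 and 1637 (0.42, SE 0.05, limma adjusted p = 0.00733). Ndc80, of the kinetochore, and Cdca2, a chromosome-bound phosphatase regulator, rose by 0.42 and 0.37. The widely used division marker Mki67 had 4709, 5854 and 6180 against 7611, 7678 and 6547, groups that did not overlap, and a limma adjusted p of 0.0552. Top2a, the mitotic topoisomerase, was close to the threshold as well (0.17, limma adjusted p = 0.0601). The Kif23 call was lost in the 9-library fit (adjusted p = 0.14), those for Ndc80 and Cdca2 there and without RGC library 3 (0.0563 and 0.0566) or non-RGC library 1 (0.0552 and 0.0563).

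Of the 7 progenitor genes called, 4 (Hes5, Hes1, Lfng and Dll1) belong to the Notch pathway, by which progenitors hold back differentiation in their neighbours. Hes5, an effector of Notch, had 476.7, 436.1 and 454 against 644.7, 646.3 and 706.9 (0.55, SE 0.08, limma adjusted p = 0.00914), and it kept its call in every setting. Hes1, another effector, rose by 0.42, and Lfng, a sugar transferase that modifies Notch, by 0.43, while the ligand Dll1 rose by 0.28. The call for Lfng was lost in the 9-library fit (adjusted p = 0.483), and those for Hes1 and Dll1 without RGC library 2 (0.057 and 0.12), RGC library 3 (0.0566 and 0.109) or non-RGC library 1 (0.0565 and 0.108). Notch1 itself overlapped between fractions (limma adjusted p = 0.537). Pax6, a classical progenitor factor which ganglion and amacrine cells also express, overlapped too (limma adjusted p = 0.295). Of 33 Notch and hedgehog genes 4 were higher and 1, Shh, was lower. Shh, which ganglion cells secrete to sustain progenitors, had 69.04, 215.6 and 208.7 against 27.07, 40.27 and 5.315 (-2.92, SE 0.75, limma adjusted p = 0.0379). Its call was lost with voom (adjusted p = 0.0711) and without RGC library 2 (0.128), RGC library 3 (0.122) or non-RGC library 1 (0.0917).

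**Figure D4:**
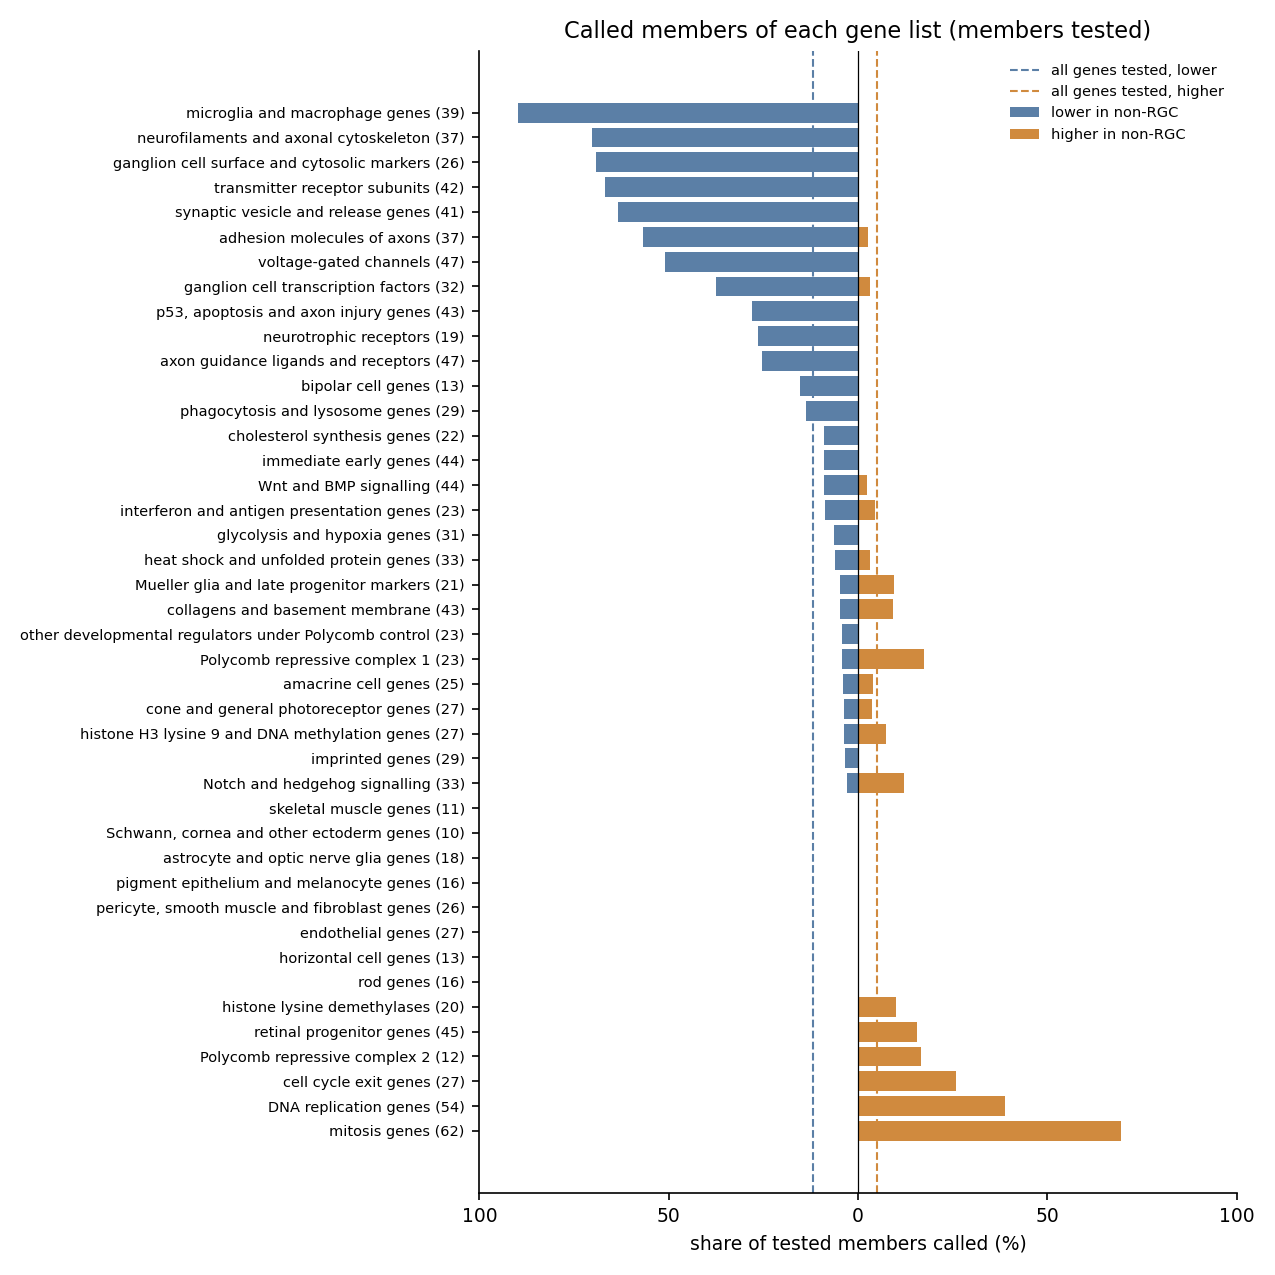
Share of tested members called lower and higher in the non-RGC fraction (percent, horizontal axis, lower to the left and higher to the right) for each gene group with at least 10 tested genes, with dashed lines at the shares over all genes, 12% lower and 5.07% higher. Microglial, ganglion cell, synaptic and receptor genes lie far past the first line, and mitosis and replication genes past the second. Most microglial genes passed the filter on low counts only through the RGC fraction, so their share has no weight beyond the values.

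Markers of the other retinal cell types were rarely called with all 6 libraries. More were called without the libraries that stood apart, but so were more genes of every kind. Over all 15179 genes the calls rose from 2592 to 6368 in that fit, so nothing about these cell types is read from the rise. Of 16 rod genes none was called, of 27 cone and general photoreceptor genes 1 was higher and 1 lower, of 25 amacrine genes 1 was higher and 1 lower, and of 13 horizontal cell genes none was called. Of 13 bipolar genes 2 were lower, and of 21 genes of Mueller glia and late progenitors 2 were higher and 1 lower. Nrl, the factor that specifies rods, had 1970, 1183 and 1248 in the RGC and 1142, 1259 and 2306 in the non-RGC libraries, so 1 library of each fraction was high. RGC library 1 and non-RGC library 3, the high libraries for Nrl, are those that stood apart in the ganglion cell genes. Without RGC library 1 and non-RGC library 3, 5 rod genes were higher and 1 lower, and 12 photoreceptor genes higher and 1 lower. In that fit 10 genes of Mueller glia and late progenitors were higher and 2 lower, 6 amacrine genes higher and 5 lower, 5 horizontal cell genes higher and 3 lower, and 3 bipolar genes higher and 3 lower.

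Single genes of these types did differ. Calb2 (calretinin), made by ganglion cells and amacrine cells alike, had 1510, 1981 and 1940 against 660.7, 789.3 and 474.1 (-1.52, SE 0.19, limma adjusted p = 0.00711). Gad2, which makes the transmitter of GABAergic amacrine cells, rose by 0.27 (limma adjusted p = 0.0377), and the amacrine factors Tfap2a and Tfap2b overlapped. Among cone genes, Gnb3, a transducin subunit, rose by 0.51, and Rxrg, a nuclear receptor shared by cones and ganglion cells, fell by 0.52. Gad2, Gnb3 and Rxrg each lost the call without RGC library 2 (0.152, 0.0846 and 0.16), RGC library 3 (0.1, 0.0907 and 0.161) and non-RGC library 1 (0.135, 0.0835 and 0.137). Irx6, an Iroquois factor on both the bipolar and the ganglion cell list (-1.39), and Prkca, of rod bipolar cells (-0.3), were lower. Irx6 and Prkca also lost the call without RGC library 2 (0.0544 and 0.104), RGC library 3 (0.0566 and 0.0693) or non-RGC library 1 (0.0644 and 0.0726). Clu (clusterin), of glia, fell by 1.08, with 319.7, 334.2 and 347.1 against 126.3, 182.2 and 169 (SE 0.16, limma adjusted p = 0.00902), and kept its call in every setting.

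Genes of neurotrophic signalling and of the axon's response to injury were in part lower. Of 19 genes of neurotrophic signalling 5 were lower and none higher, and 9 lower and 1 higher without RGC library 1 and non-RGC library 3. Ntrk2, the receptor for the growth factor BDNF, had 986.4, 1273 and 1198 against 354.9, 471.2 and 362.5 (-1.54, SE 0.14, limma adjusted p = 0.00425). Ret, the co-receptor for GDNF ligands, fell by 1.33, and its call was lost without RGC library 2 (0.0649), RGC library 3 (0.064) or non-RGC library 1 (0.0588). Of 43 genes of p53, apoptosis and axon injury 12 were lower and none higher, a share of 27.9% lower beside 12% of all genes. That number was 22 lower and 4 higher without RGC library 1 and non-RGC library 3, and 3 lower without RGC library 2, RGC library 3 or non-RGC library 1. Those named were the axon survival enzyme Nmnat2 (-1.28, adjusted p = 0.0529 without non-RGC library 1) and the stress kinases Mapk10 (-1.22) and Map3k13 (-0.66). Trp53, Bax and Ddit3, which respond to damage or stress, were not called (limma adjusted p = 0.0768, 0.522 and 0.282). Of 44 immediate early genes 4 were lower: Npas4, Homer1, Fosl2 and Bdnf. Npas4, induced by neuronal activity, had 310.2, 306.7 and 518.2 against 191.5, 135.9 and 222.2 (-1.03, limma adjusted p = 0.0356). Fos and Egr1, which dissociation induces in many cells, overlapped between fractions (limma adjusted p = 0.986 and 0.271). The Npas4 call was lost with voom (adjusted p = 0.0514) and without RGC library 2 (0.0713), RGC library 3 (0.0947), non-RGC library 1 (0.101) or non-RGC library 2 (0.1).

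A few genes of the chromatin pathway targeted in these mice were slightly higher in the non-RGC fraction. Ezh2, the Polycomb methyltransferase of histone H3 lysine 27, had 2005, 1956 and 1894 in the RGC and 2327, 2244 and 2409 in the non-RGC libraries (0.25, SE 0.06, limma adjusted p = 0.0242). Gene counts over a floxed gene can include transcripts with the exon removed, so they do not check the deletion. The call for Ezh2 was lost without RGC library 2 (0.099), RGC library 3 (0.115), non-RGC library 1 (0.091) or non-RGC library 2 (0.0545), and in the 9-library fit (0.174). Ehmt2, the H3 lysine 9 methyltransferase G9a, overlapped, with 2416, 2939 and 3098 against 3111, 3377 and 2839 (limma adjusted p = 0.402). Eed and Suz12, the other core subunits of Polycomb repressive complex 2, were not called. Of 12 genes of that complex 2 (16.7%) were higher, Ezh2 and Phf19, and of 23 of complex 1 4 (17.4%) were higher and 1 lower, where 5.07% of all genes were higher. In the fit that leaves out RGC library 1 and non-RGC library 3, 4 genes of complex 2 and 7 of complex 1 were higher and 4 of complex 1 lower. None of either complex was called without RGC library 2, RGC library 3, non-RGC library 1 or non-RGC library 2. Cbx7, a reader subunit of complex 1, had 521.1, 469.4 and 537.5 against 1039, 1027 and 661.2 (0.81, SE 0.18, limma adjusted p = 0.0229), and Cbx2 rose by 0.4. Cbx7 and Cbx2 both lost the call without RGC library 2 (0.0856 and 0.0653), RGC library 3 (0.0669 and 0.0607), non-RGC library 1 (0.0906 and 0.0706) or non-RGC library 2 (0.0783 and 0.0565). None of 38 Hox genes, the classical Polycomb targets, reached the mean of 10, and 17 had no read in any of the 6 libraries. Of 23 other developmental regulators under Polycomb control, 1, Shh, was lower and none higher.

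The 12 largest increases were in genes outside the groups described above, counting well-annotated genes whose mean reached 50 and whose fractions did not overlap. Larger fitted increases, up to 2.425, were in genes that are predicted, carry only a clone name or have lower counts. Zfp692, a zinc finger protein gene (chr11:58307057-58315145), had 165.5, 167.6 and 172 in the RGC and 528.4, 517.5 and 346.6 in the non-RGC libraries (1.43, SE 0.17, limma adjusted p = 0.00696). Ankle1, an endonuclease gene, had 184.4, 168.6 and 197.5 against 481.2, 440 and 405 (1.26, SE 0.11, limma adjusted p = 0.00425). Both kept their call in every setting. Msh5 and Stag3, of meiotic chromosomes, rose by 1.4 and 1.24, Ager, a receptor for glycated proteins, by 1.42, Metap1d, a mitochondrial aminopeptidase, by 1.27 and Adamts10, a secreted protease, by 1.23. The others were Izumo4, Ddx26b, Ankrd16, Fam227a and Plekhn1, with differences from 1.1 to 1.22. Of 15 settings, Stag3 lost the call in 9, Izumo4 and Ager in 4, and Adamts10, Ankrd16, Fam227a and Plekhn1 in 3. Msh5 lost it in 2, and Ddx26b and Metap1d in 1. Msh5, Ager and Adamts10 lost the call without RGC library 2 (0.0561, 0.0576 and 0.0663) or non-RGC library 1 (0.0553, 0.0692 and 0.0751), and Metap1d without non-RGC library 1 (0.0538). Stag3 was at the threshold (limma adjusted p = 0.05) and lost the call without non-RGC library 1 (0.152) or 2 (0.145) and without each RGC library in turn (0.0775, 0.154 and 0.0992). For 37 of the 42 genes higher by more than 2-fold, non-RGC library 3 was the lowest non-RGC library, as it was for Zfp692. None of the 42 belonged to a neuronal or microglial group. All 42 were called higher without RGC library 1 and non-RGC library 3. Every one of the 2592 genes called with all libraries kept its call in that fit, so this does not set the 42 apart.

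The share of genes called lower in the non-RGC fraction rose with the length of the gene. Among 904 genes over 200 kb, 316 (35.0%) were lower and 7 (0.774%) higher, and their median was -0.315. Among 3848 genes under 10 kb, 6.76% were lower and 5.9% higher, and the median was 0.0785. The classes between lay in order, with 9.12% lower from 10 to 50 kb and 18.8% from 50 to 200 kb. Without the members of the 8 neuronal groups and the microglial group, 32.6% of the remaining 809 longest genes were lower, against 6.1% of the shortest. This removed listed genes only, and 711 of the 857 genes lower by more than 2-fold were in no list. Whether length matters apart from neuronal genes was therefore not tested. With total-count scaling the shares lower were 32.1% and 6.26%, and without RGC library 1 and non-RGC library 3 they were 52.7% and 16.3%. Lengths came from RefSeq, which matched 14742 of the genes tested (97.1%).

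**Figure D5:**
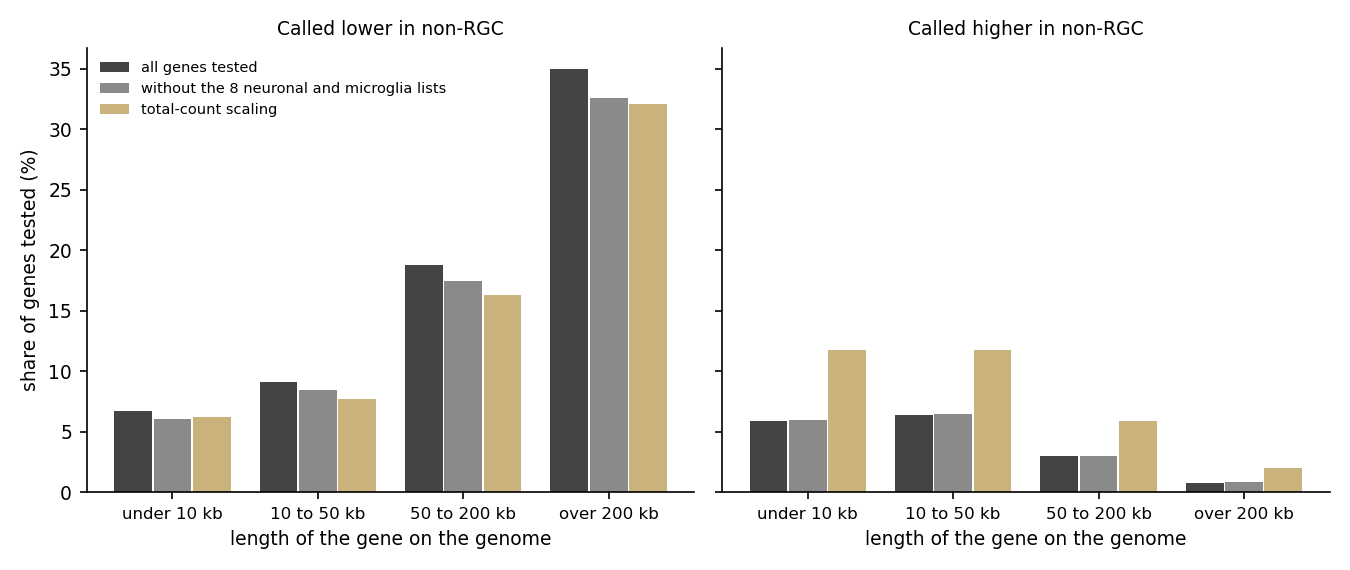
Share of genes called lower (left) and higher (right) in the non-RGC fraction (percent of genes tested) by the length of the gene on the genome, for all genes, without the neuronal and microglial groups, and with total-count scaling. The share lower rises from 6.76% under 10 kb to 35.0% over 200 kb, and the share higher falls from 5.9% to 0.774%.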

How the data were processed

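Poly(A) RNA of the RGC and non-RGC fractions was sequenced and the reads were processed by the authors with STAR 2.3, featureCounts, DESeq and FastQC on build mm10, per the submitters' processing notes. No source used here says whether counting used strand, so genes that overlap on opposite strands cannot be told apart, and duplicate reads were removed before counting, per the name of the deposited table, which compresses the most abundant transcripts. The deposited table gives, per the file headers, mean normalised counts per fraction (counts divided by size factors), a fold change, its log2 and p-values that the authors computed with DESeq. It gives no value per library. The authors' means are written at full precision, so counts of the 3 libraries per fraction were recovered from them: the values of genes with single reads gave the size factors, and each mean was then split into the 3 whole counts that give it. A split counted as found when its distance from whole numbers was at most 1e-09 and any other split was 10 times further away, as it was for 99.996% of RGC genes and 100.0% of non-RGC genes with a read. For the 23953 RGC genes that could be compared, a separate table of the authors gave identical counts. Libraries were numbered by falling size factor and are tied to no sample.

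Normalised counts were tested as log2(count + 1) with limma 3.58.1 (empirical Bayes with a trend in mean level, R 4.3.3, python 3.11.15, numpy 2.4.6, pandas 2.3.3), on the 6 libraries and on genes with a mean of at least 10. The p-values were adjusted over all genes tested. Differences are means of 3 log values, so they can depart from a ratio of means. The gene lists (47 lists, 1410 genes, 1194 tested, 91 in more than 1) and the genes taken were chosen with earlier results of these data known. Genes named are those marked as defining in each list, up to 3 further members per list with the smallest adjusted p, and, each way, the 12 called genes that differed most, limited to those whose mean reached 50 and whose groups did not overlap. Pseudogenes, predicted genes and those with only a clone name were skipped in the last step. A few of the genes chosen in this way are left out of the text. Ebf4, Igsf9, Pole2, Pf4, Siglech and the uncalled macrophage genes were named after their values were seen. Alternatives tried were pseudocounts of 0.5 and 5, no filter and a mean of at least 50, total-count and upper-quartile scaling, voom weights on the recovered counts, 9 libraries in 1 fit (3 wild-type RGC libraries from the other deposited table added), each library left out and, added after the data were seen, RGC library 1 and non-RGC library 3 left out together. Gene positions, lengths and promoters are RefSeq's on GRCm38.p6. Intervals at 95% and floors of 3 reads cover counting error only. The test was tried on simulated data before use.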

Additional observations from a re-analysis of the deposited data

How the results depend on the processing

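Without RGC library 1 and non-RGC library 3 together, an alternative added after the data were seen, 6368 genes were called, 2680 higher and 3688 lower, and 1458 differed by more than 2-fold. Total-count scaling gave 1471 higher, and 9 libraries in 1 fit gave 442 higher. Leaving out 1 library gave 440 to 3397 called genes, 44 to 1036 higher, 396 to 2423 lower and 246 to 1139 beyond 2-fold. The lowest came without non-RGC library 1, and the next lowest without RGC library 2 (78 higher, 516 lower) and RGC library 3 (91 higher, 531 lower). These fits test fewer samples. Of the 137 called genes chosen for naming, 35 lost the call with 9 libraries, 18 with voom, 13 without a filter, 6 with total-count and 3 with upper-quartile scaling, and 4 with a pseudocount of 5. None lost it with a pseudocount of 0.5, and 128 of 128 kept it at a mean of at least 50. No difference of these genes changed sign under these alternatives. No paired analysis was possible because the recovered libraries carry no sample numbers. Depth limits genes near 0 in the non-RGC fraction, whose fitted differences depend on the pseudocount.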

Other observations

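Housekeeping families differed little between the fractions. Of 82 cytosolic ribosomal protein genes 3 were called higher in the non-RGC fraction and none lower. In 50 of the 82 all non-RGC libraries lay above all RGC libraries, against 17.1% of all genes. Their median difference was 0.109 (log2, non-RGC minus RGC). Of 75 mitochondrial ribosomal protein genes 5 were higher and none lower, with a median of 0.128. Of 82 nuclear genes of respiratory chain subunits 1 was higher. The replication-dependent histones, which poly(A) selection captures poorly, had a median of 0.357, and none of the 38 tested was called. Over all genes 5.07% were higher and 12% lower. Without RGC library 1 and non-RGC library 3, 7 cytosolic and 6 mitochondrial ribosomal protein genes were higher and 1 of each lower.

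Families of the cell surface and of transport held more lower genes, where 12% of all genes were lower and 5.07% higher. Of 74 potassium channel genes 23 (31.1%) were lower and 1 higher. Of 33 cadherins and non-clustered protocadherins 11 (33.3%) were lower and 1 higher, and of 19 regulators of G protein signalling 7 (36.8%) were lower. Of 47 interleukins, chemokines and their receptors 18 (38.3%) were lower and 1 higher. Only these 47 of 140 genes of that family passed the filter on low counts. A gene high only in the RGC fraction can pass it through that fraction alone, so this share has no weight beyond the values. The kinesins and dyneins were divided evenly: 11 of 51 were higher and 11 lower, and the family holds both mitotic motors such as Kif23 and axonal ones such as Kif5c and Kif1b. Of 359 zinc finger protein genes 12 were higher, Zfp692 among them, and 13 lower. The numbers lower without RGC library 1 and non-RGC library 3 were 39 potassium channels, 17 cadherins, 11 regulators of G protein signalling and 18 interleukins, chemokines and their receptors. In that fit 17 kinesins and dyneins were higher and 18 lower, and 65 zinc finger protein genes were higher and 29 lower.

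By gene type, 735 of 13878 protein-coding genes were higher and 1784 lower, 22 of 595 long noncoding RNA genes were higher and 20 lower, and none of 166 pseudogenes was called. By chromosome the share of genes lower ran from 8.97% on chromosome 17 to 16.4% on chromosome 18, leaving out the 5 genes tested on chromosome Y, of which none was called. Chromosome 17 had the highest share called higher, 7.17%, and it carries Ager, Msh5 and Adamts10 among the 12 largest increases. At a mean level of 10 to 50 normalised counts 14 of 2591 genes were higher and 234 lower.

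The number of cholesterol synthesis genes called depended on 2 libraries. Of 22 tested, 2 were lower with all libraries, and 16 without RGC library 1 and non-RGC library 3. Hmgcs1, which makes the precursor of the pathway, had 3143, 3914 and 3924 normalised counts in the RGC libraries and 2871, 2863 and 2662 in the others (-0.38, limma adjusted p = 0.035), and RGC library 1 was the lowest of its fraction. Its call was lost without each library other than RGC library 1, at adjusted p from 0.0801 to 0.129.

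Meg3, an imprinted noncoding RNA of neurons, had 2318, 3748 and 3561 in the RGC libraries and 2383, 2589 and 591.1 in the non-RGC libraries (limma adjusted p = 0.24). Non-RGC library 3 lay far below the rest, as it did for Thy1 and Pou4f2. Robo3, a guidance receptor named here after its values were seen, ran the other way, with 462.5, 84.28 and 96.71 in the RGC libraries and 398, 331.2 and 781.4 in the others, so RGC library 1 and non-RGC library 3 were again the 2 that stood apart.

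Lens crystallin genes had their highest values in RGC library 1. Crybb1, a lens crystallin, had 116.3, 33.32 and 27.49 in the RGC libraries and 1.003, 3.02 and 0 in the others (-4.6, limma adjusted p = 0.0109, and 0.0529 without non-RGC library 1). Cryaa had 34.05 in RGC library 1 and no read in the other libraries. Cryba4 had 60.53, 11.76 and 13.23 in the RGC libraries and no non-RGC read, which makes it at least 28.4-fold lower there at a floor of 3 reads over the group. Crybb1 and Cryba4 overlap on the genome, so their reads cannot be told apart. Both passed the filter on low counts only through the RGC fraction, so the adjusted p has no weight beyond the values. Only 8 of the 27 lens genes were tested. Over all 27 lens genes in the table the summed level was 441.7, 203.8 and 203.6 in the RGC and 173.4, 192.3 and 157.3 in the non-RGC libraries.

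Further gene groups gave few calls, set here beside 12% lower and 5.07% higher over all genes, and nothing about a group is read from them. Of 29 phagocytosis and lysosome genes 4 were lower, among them Grn (progranulin), Gas6 and Mertk, of 44 Wnt and BMP genes 1 (Id1) was higher and 4 lower, and of 23 interferon and antigen presentation genes 1 (Irf1) was higher and 2 lower. Of 33 heat shock and unfolded protein genes 1, the master regulator Hsf1, was higher and 2, Hspb1 and Asns, lower. Of 31 glycolysis and hypoxia genes 2, Hk1 and Eno2, were lower, and of 29 imprinted genes 1, Snrpn. Of 27 genes of H3 lysine 9 and DNA methylation 2, Dnmt3b and Gadd45a, were higher and 1 was lower, and of 20 histone demethylase genes 2, Kdm8 and Kdm3a, were higher. None of 16 pigment cell, 11 skeletal muscle and 10 Schwann, cornea and ectoderm genes was called. Of 5 lymphocyte genes tested 1 was higher, and of 7 erythroid genes 1, Tal1, was lower, a call lost under 11 of 14 alternatives.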
